A study of Canis lupus familiaris with 8 samples.

Results

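Cartilage and tendon genes of the anterior mitral valve leaflet were followed in 8 dogs. The 6 genes were SOX9, ACAN, CILP, TNMD, PTN and S100B. Each was represented by 1 probe set, so they made up 6 of the 23836 probe sets on the array other than controls, and 6 of the 14705 that were bright enough to be tested. The genes were chosen by their per-dog signals in these same arrays, by the difference between affected and control leaflets and by their relation to heart muscle transcripts. Their group differences and that relation are therefore given as a description, with no test of their own.

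The affected group was 4 dogs with degenerative mitral valve disease, in which the leaflets thicken and lose their shape. Affected 1 was a Lhasa apso, affected 2 and affected 4 were Miniature poodles and affected 3 was a Dachshund. The control group was 4 beagle crosses, so breed and disease cannot be told apart, and age is not given in the sources used here. All leaflets had been frozen in liquid nitrogen, total RNA was taken from each, and each dog gave 1 Affymetrix array whose MAS5 signals are on a linear scale. The labels name no treatment of either group, and they do not say that none was given.

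A mitral leaflet is a sheet of connective tissue made by valve interstitial cells. It holds collagen, elastic fibres and proteoglycans, and it has much in common with cartilage and tendon. The transcription factor SOX9 drives cartilage formation and, in mice, is needed for valve development. One of its targets is ACAN, which encodes aggrecan, the large proteoglycan that binds water in cartilage. CILP is a secreted matrix protein first found in the intermediate layer of cartilage. TNMD, tenomodulin, is a membrane glycoprotein of tendon cells that is also known from the cords that anchor the valve. PTN, pleiotrophin, is a secreted heparin-binding growth factor of cartilage and nervous tissue. S100B is a calcium-binding protein of cartilage cells, and also of Schwann cells and fat cells. Atrial muscle reaches into the base of the leaflet, so a piece of leaflet can carry heart muscle RNA.

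The arrays showed both tissues. COL1A2, a chain of type I collagen, had signals from 19963 to 23186 in affected leaflets and from 6903 to 25660 in controls, above at least 97.9% of probe sets on every array. MYL4, the atrial myosin light chain, had signals from 7068 to 36788 in affected leaflets and from 12240 to 35063 in controls. The mean log2 signal of 22 heart muscle genes, called the muscle mean below, was 11.43, 12.54, 9.38 and 11.22 in affected 1 to 4. It was 11.27, 13.35, 10.47 and 12.04 in controls 1 to 4. Control 2 thus had the most muscle signal and affected 3 the least. Control 2 also had the lowest mean log2 signal of 9 fibroblast and valve interstitial cell genes, at 11.29, where the other 7 dogs lay between 13.40 and 13.95. Array spike-in controls, whose signal is high where the sample itself is weak, averaged 1027 to 3502 in affected dogs and 881 to 1647 in controls, with the highest values in affected 1 and affected 2. In whole tissue, fewer cells of a type and less RNA per cell cannot be told apart.

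SOX9, the regulator of the group, had signals of 325, 330, 1171 and 365 in affected dogs 1 to 4. The 4 control dogs had 1118, 114, 1273 and 1435. A trio of affected dogs lay close together, while affected 3 matched the high controls and control 2 was the lowest of all 8 dogs. The groups therefore overlapped at both ends. The log2 difference, affected minus control, was -0.59 ± 0.77 (SE, n = 4 per group).

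ACAN had the widest range, 87.4-fold over the 8 dogs. Its signals were 264, 374, 2452 and 718 in affected dogs and 1575, 39.7, 3472 and 2191 in controls. The value in control 2 lay just above the floor of 34.2 set for imprecise low signals. The log2 difference was -0.36 ± 1.27, much smaller than its error, and the spread among controls (SD 2.96 on the log2 scale) was larger than that among affected dogs (SD 1.42). For both SOX9 and ACAN the difference between the groups was smaller than its standard error.

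CILP, the other matrix gene, behaved differently from ACAN. Its signals were 239, 625, 1093 and 527 in affected leaflets and 2822, 608, 4231 and 4346 in control leaflets. Every affected dog was below controls 1, 3 and 4, and control 2 lay inside the affected range. The mean log2 signal was 9.08 ± 0.91 (SD, n = 4) in affected dogs and 11.21 ± 1.34 (SD, n = 4) in controls, a difference of -2.13 ± 0.65 (SE). On the linear scale the affected leaflets had 0.229 times the control level as a geometric mean.

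TNMD, the tendon gene, had signals of 102, 119, 642 and 87.3 in affected leaflets. In controls these were 1095, 122, 1373 and 931. A trio of affected dogs and control 2 sat at a common low level, and only affected 3 came near the other controls. The log2 difference was -2.00 ± 0.83 (SE). TNMD lay above the array's 40th percentile in only 5 of 8 dogs, the 4 controls and affected 3, so its low values are close to background and it was bright enough to be tested through the group in which it was high.

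PTN, the growth factor, differed most of the 6 genes. Its signals were 155, 188, 1774 and 529 in affected leaflets, against 2632, 851, 4988 and 4142 in controls. All affected dogs were below controls 1, 3 and 4, and affected 3 was the only one above control 2. The mean log2 signal was 8.67 ± 1.61 (SD, n = 4) in affected dogs and 11.35 ± 1.14 (SD, n = 4) in controls. The difference of -2.68 ± 0.78 (SE) corresponds to 0.156 times the control level. Of the tested probe sets, 0.0204% had a difference as low or lower, but PTN was chosen by its difference in these arrays. The lowest 2 PTN values came from affected 1 and affected 2, the arrays with the highest spike-in signal of 3502 and 2192. Over the 8 dogs all 6 genes ran against the spike-in signal, with r of -0.35 for SOX9, -0.39 for ACAN, -0.56 for CILP, -0.50 for TNMD, -0.70 for PTN and -0.43 for S100B. The part of this in the results was not tested.

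S100B had signals of 146, 89.3, 226 and 188 in affected leaflets. The control signals were 451, 107, 1209 and 682. The affected dogs were tight (SD 0.58 on the log2 scale) and the controls were spread (SD 1.49), with control 3 highest and control 2 within the affected range. The log2 difference was -1.54 ± 0.65 (SE).

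**Figure D1:**
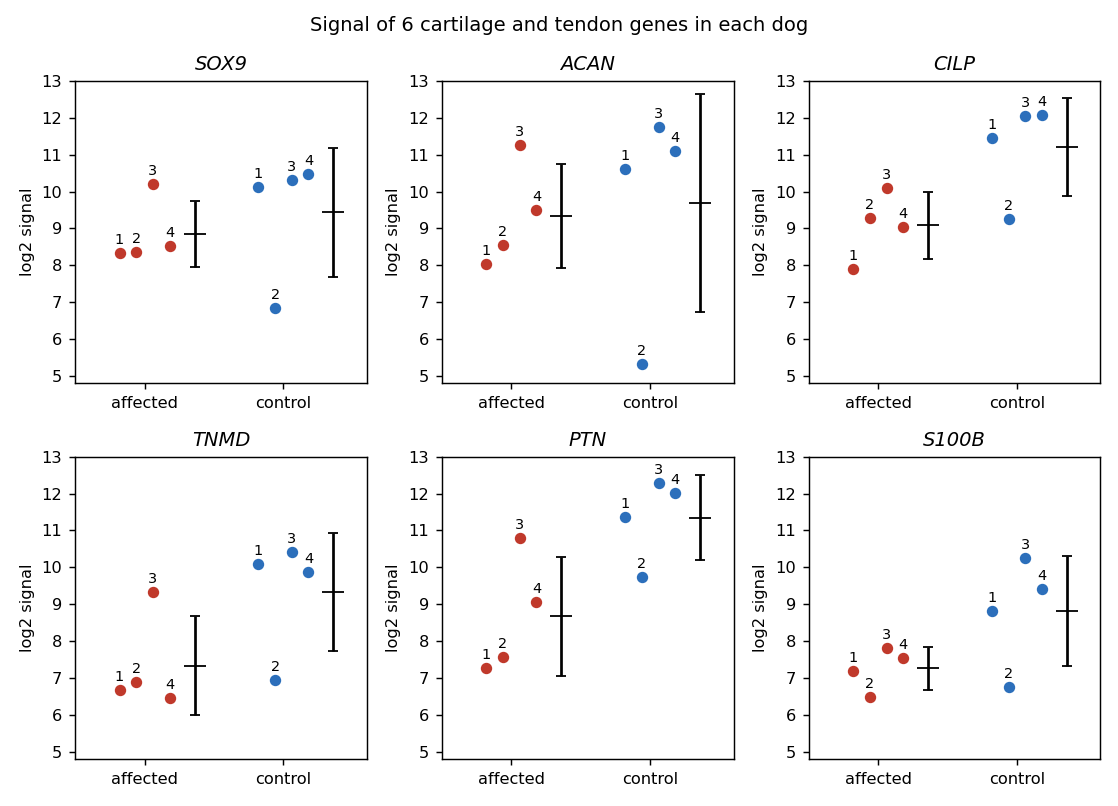
Log2 signal of SOX9, ACAN, CILP, TNMD, PTN and S100B in each leaflet, with affected dogs in red on the left and control dogs in blue on the right, numbered by dog; black bars are the group mean ± SD (n = 4). In all 6 panels affected 3 is the highest affected dog and control 2 the lowest control dog, and the groups overlap.

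In limma 0 of 14705 probe sets (0%) had an adjusted p under 0.05, the smallest being 0.238, and the 6 genes had adjusted p from 0.470 for PTN to 0.953 for ACAN. Before adjustment, 560 probe sets (3.81%) lay under 0.05 with lower signal in affected dogs, and 591 with higher signal. CILP, TNMD, PTN and S100B were among the 560, which is a count that the choice of these genes fixed. All affected dogs lay below all controls for 2.31% of tested probe sets and for 0 of the 6 genes. All 6 differences were negative, with a median of -1.77, again in genes chosen by their difference. The median over all tested probe sets was 0.0065, and 49.5% were negative.

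The overlap came from a pair of dogs at opposite ends. Affected 3 had the highest signal of the affected dogs for all 6 genes, and control 2 had the lowest of the controls for all 6. Without control 2, every affected dog was below every remaining control for CILP, TNMD, PTN and S100B, but not for SOX9 or ACAN, where affected 3 stayed above control 1. That left 4 of 6 genes without overlap. The share over all tested probe sets was 5.23%, but nothing is read from the count, since the genes were chosen by their group difference and control 2 was the lowest control for each of them. The differences were then -1.45 for SOX9, -1.82 for ACAN, -2.78 for CILP, -2.79 for TNMD, -3.22 for PTN and -2.23 for S100B, and none passed over all probe sets (adjusted p from 0.223 to 0.497 in limma). For SOX9 and ACAN this more than doubled the size. Without affected 3 SOX9 was at -1.03 and ACAN at -1.0. ACAN turned sign without affected 1 (0.067), without control 3 (0.33) and without control 4 (0.10), and was -0.055 without control 1 and -0.10 without affected 2. SOX9 was at -0.36 without control 1, -0.29 without control 3 and -0.24 without control 4. The other 4 genes stayed negative whichever dog was left out, with S100B closest to 0 at -1.07 without control 3.

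**Figure D2:**
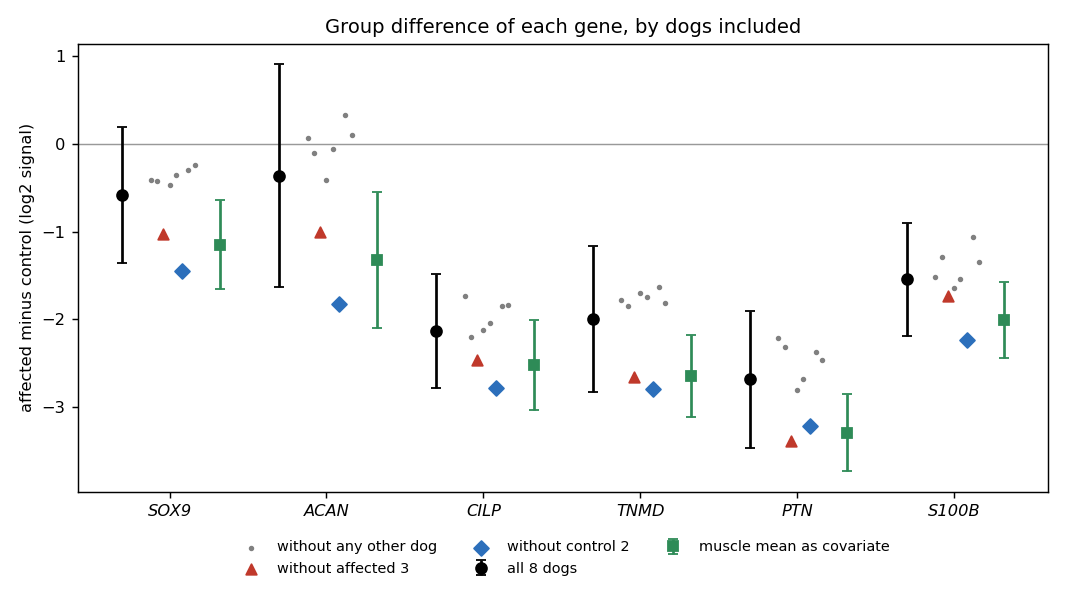
Difference in log2 signal, affected minus control, for each of the 6 genes: black circles are all 8 dogs (bars ± SE from limma), small grey points leave out 1 dog each, red triangles leave out affected 3, blue diamonds leave out control 2, and green squares add the muscle mean as a covariate (bars ± SE). ACAN and SOX9 lie nearest to 0, and every gene is lower without control 2 and with the covariate.

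Over the 8 dogs the genes ran against heart muscle transcripts, with r larger in size on deviations from the group means. Over the 8 dogs Pearson's r with the muscle mean was -0.69 for SOX9 (Spearman's rho -0.55) and -0.76 for ACAN (rho -0.76). It was weaker for CILP at -0.24 (rho -0.19), TNMD at -0.49 (rho -0.26), PTN at -0.35 (rho -0.36) and S100B at -0.44 (rho -0.60). The median r over all tested probe sets was 0.058. The share of tested probe sets with an r as low was 30.9% for CILP, 24.5% for PTN, 19.4% for S100B and 16.6% for TNMD. It was 6.51% for SOX9 and 3.09% for ACAN. An r like that of CILP was thus not rare on these arrays. The same 8 RNA samples and the same scaling to a common level lie behind every such r.

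The 2 dogs farthest from the median of the muscle mean were control 2 and affected 3. Without them, over 6 dogs, r was -0.34 for SOX9 and -0.49 for ACAN, so for these genes much of the size rests on that pair. It was -0.26 for CILP, -0.38 for TNMD, -0.45 for PTN and -0.61 for S100B. When each dog was expressed as a deviation from its group mean, r over the 8 dogs was -0.81 for SOX9, -0.82 for ACAN, -0.68 for CILP, -0.87 for TNMD, -0.87 for PTN and -0.82 for S100B. Of all tested probe sets, between 1.52% for TNMD and 10.5% for CILP had a value as low. Affected 3, with the least muscle, stood at the top of its group and control 2, with the most, at the bottom of its own. The r on deviations is not given without this pair, so how far it rests on these dogs was not tested.

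**Figure D3:**
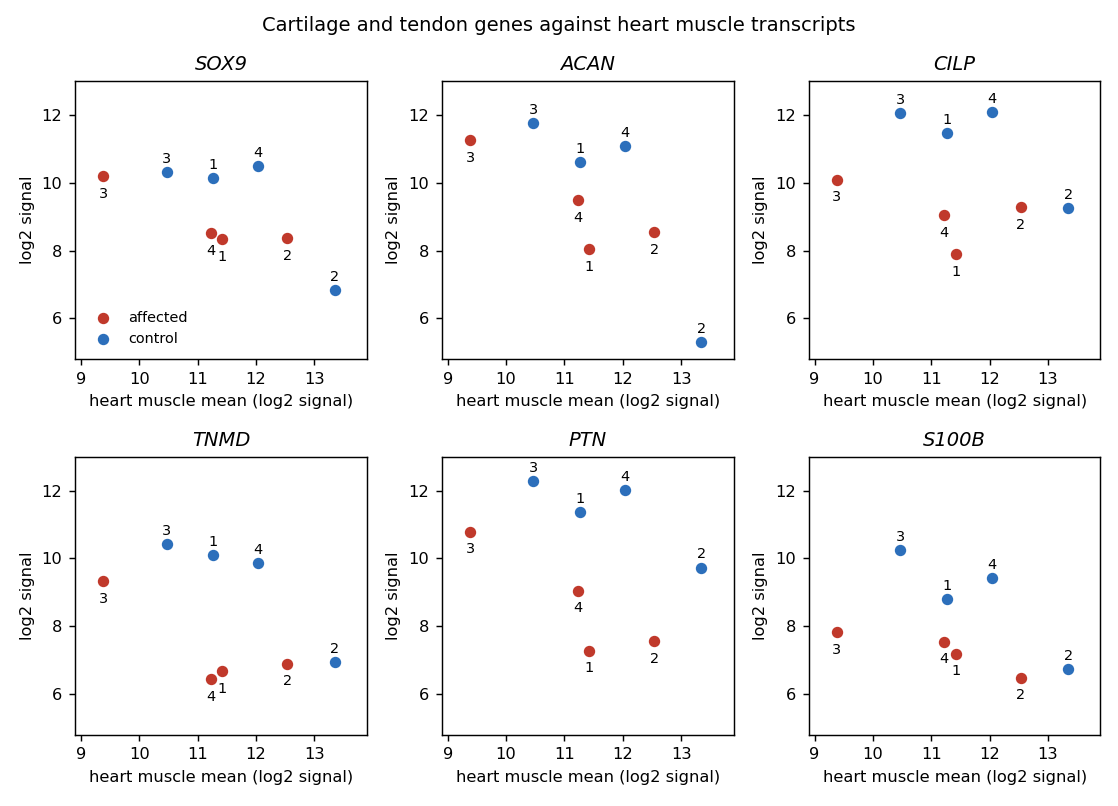
Log2 signal of each of the 6 genes against the mean log2 signal of 22 heart muscle genes in the same dog, with affected dogs in red and control dogs in blue, numbered by dog. Between muscle means of 10.47 and 12.54 the affected dogs 1, 2 and 4 lie below controls 1, 3 and 4 in every panel; affected 3 and control 2 lie at the ends of the muscle axis.

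With the muscle mean as a covariate in limma all 6 differences were larger in size and their errors smaller. They were -1.15 ± 0.51 for SOX9, -1.32 ± 0.77 for ACAN and -2.52 ± 0.51 for CILP. They were -2.64 ± 0.47 for TNMD, -3.29 ± 0.44 for PTN and -2.01 ± 0.43 for S100B (SE). No probe set passed in this fit either, and PTN had its smallest adjusted p, at 0.0948. The genes were chosen by their group difference and by their relation to heart muscle transcripts, so the larger sizes are only a description. This fit is not given without control 2 and affected 3, the dogs at the ends of the muscle axis. The muscle mean itself was 11.14 ± 1.31 (SD, n = 4) in affected dogs and 11.78 ± 1.23 (SD, n = 4) in controls, and the groups overlapped.

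Of 35 listed heart muscle genes 22 were tested, with 21 lower and 1 higher in affected leaflets, a median of -0.61 and none past the threshold. That direction turned without affected 3, when 8 of 22 were lower with a median of 0.10, and without control 2 it was 13 of 22 with a median of -0.093. CACNA1C, a calcium channel subunit, differed by -0.61 ± 0.30, MYOZ2, a protein of the sarcomere's Z disc, by -1.16 ± 0.64 and the stress-responsive ANKRD1 by -1.05 ± 0.66 (SE). Without control 2 MYOZ2 was at -0.64 and ANKRD1 at -0.50, and without affected 3 ANKRD1 was at -0.65. The brightest genes of the list, MYL4 at -0.23 ± 0.48, cardiac actin ACTC1 at 0.11 ± 0.42 and troponin TNNC1 at -0.21 ± 0.61, had differences within their errors. Summed over the list, the signal ranged from 33827 to 267589 in affected dogs and from 67064 to 359848 in controls.

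Among themselves the 6 genes varied together. SOX9 and ACAN had r = 0.97 over the 8 dogs, and 0.94 without control 2 and affected 3. CILP, TNMD and PTN formed another close set, with r of 0.93 between CILP and TNMD, 0.93 between CILP and PTN and 0.90 between TNMD and PTN. The lowest of the 15 pairs was ACAN with PTN at 0.64, which became 0.99 without that pair of dogs. Without both dogs all 15 pairs lay between 0.89 and 0.99. The dogs left then differ by group, so these values partly restate the group difference by which the genes were chosen. On deviations from the group means over the 8 dogs, the pairs lay between 0.77 (PTN with S100B) and 0.98 (SOX9 with ACAN). These values share arrays and scaling and are descriptive.

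The genes most like each of them were taken from 7484 named probe sets above the floor in all 8 dogs. With so many candidates and only 8 dogs, very high and very low r can arise by chance, and none was tested. SOX9 was most like TMEM47 (r = 0.99), FILIP1L (0.99) and MFAP5 (0.99), and least like C6, a component of the complement membrane attack complex (-0.95). ACAN was most like MFAP5, a microfibril protein (r = 1.00 after rounding), SLIT2 (0.98) and BGN, the proteoglycan biglycan (0.98), and least like MED31 (-0.97). CILP was most like TYMS, the thymidylate synthase (0.95), EPB41L1 (0.95) and the matrix protein THBS2 (0.94), and least like the adenylate cyclase ADCY4 (-0.95).

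TNMD was most like CCPG1 (r = 0.99), the autophagy protein MAP1LC3B (0.98) and APLF (0.98), and ADCY4 was again at the far end (-0.95). PTN was most like ZMYND11 (0.98), ALDH9A1 (0.97) and PTGDS, a prostaglandin synthase (0.96), and least like POMGNT1 (-0.95). S100B was most like PURA (0.96), DNAJC8 (0.96) and ACAA1, a peroxisomal thiolase (0.95), and least like RBM27 (-0.96). The group differences of these most similar genes ran from -1.67 ± 0.57 for PTGDS to 0.13 ± 0.96 for BGN (SE), and without control 2 BGN was at -1.01.

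Few other cartilage genes were named on the array. Of 26 further genes of cartilage matrix, 3 were tested. COMP, a matrix protein of cartilage and tendon, had signals of 12053, 4462, 5102 and 3628 in affected leaflets and 9617, 729, 12817 and 10951 in controls. The groups overlapped fully and the log2 difference was 0.0039 ± 0.83, although control 2 was again the lowest dog and the difference was -0.98 without it. COL2A1, the main collagen of cartilage, was nearly flat, from 545 to 629 in affected dogs and from 506 to 677 in controls, with a difference of -0.049 ± 0.22. S100A1, which is abundant in heart muscle, differed by -0.87 ± 0.44, and by -0.42 without control 2.

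Of 31 further regulators of cartilage and of sulfate addition to its proteoglycans, 10 were tested, of which 8 were higher and 2 lower in affected dogs. Their median difference was 0.37 on the log2 scale, against 0.0065 over all tested probe sets, and it was 0.11 without affected 1, 0.22 without affected 2 and 0.14 without control 2. None passed over all probe sets. BMP6, a bone morphogenetic protein, had signals of 8524, 4011, 3204 and 1968 in affected dogs and 992, 461, 1493 and 1292 in controls. Each affected dog was above each control, the reverse of the direction of PTN and CILP, and the difference was 1.98 ± 0.48 (adjusted p = 0.366 in limma). UGDH, which makes a sugar precursor of glycosaminoglycans, differed by 0.65 ± 0.38, and by 0.31 without affected 4. WWP2, a ubiquitin ligase whose gene hosts a cartilage microRNA, differed by 0.83 ± 0.67, and by 0.05 without control 2, and its 3 probe sets ranged from -0.095 to 0.83.

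Of 35 further tendon and ligament genes, 21 were tested, with 7 lower and 14 higher in affected dogs and a median of 0.16. None passed. COL14A1, a collagen of the fibril surface, differed by -0.73 ± 0.35 with another probe set at -1.17. CLU, the chaperone clusterin, differed by 0.70 ± 0.37, and by 0.34 without control 2. TPPP3, a marker of tendon sheath cells, differed by -0.64 ± 0.46, by -0.17 without affected 4 and by -0.96 without affected 1. Without control 2 the count turned, to 19 of 21 genes lower and a median of -0.51, when the median of the 6 genes was -2.51. All 21 of these genes had a negative r with the muscle mean. With the muscle mean as a covariate 13 of 21 were lower, with a median of -0.17 and a range from -1.14 to 0.56, and the 6 genes then had a median of -2.26. The difference between the 6 genes and these lists was not tested, as the 6 were chosen by their group difference.

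**Figure D4:**
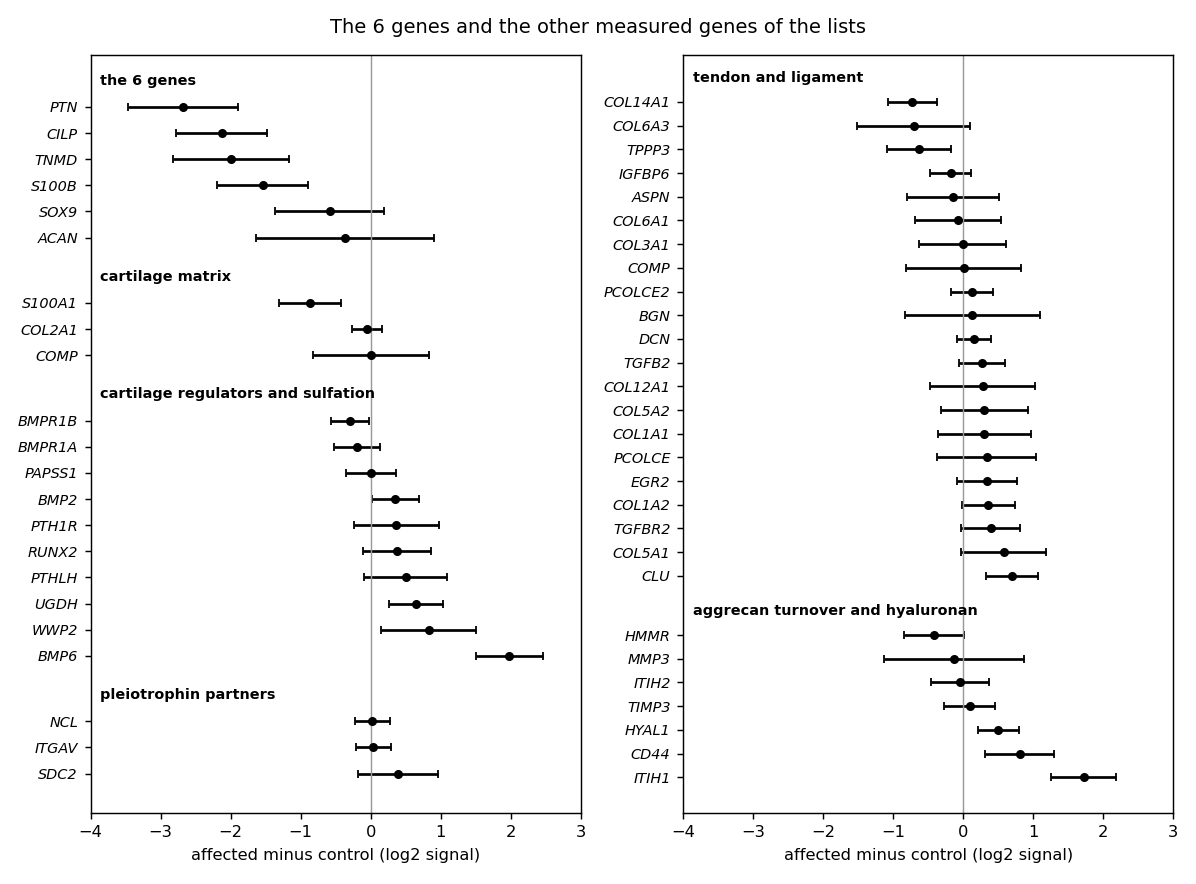
Difference in log2 signal, affected minus control (points, with bars ± SE from limma, n = 4 dogs per group), for the 6 genes and for every other tested gene of 5 lists. PTN, CILP, TNMD and S100B, genes chosen by their group difference, lie further to the left than any gene of the tendon and ligament list. BMP6 and ITIH1 lie furthest to the right.

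Genes that break down aggrecan or handle hyaluronan, the polysaccharide that aggrecan binds, were measured for 7 of 23 listed, with 4 higher and 3 lower and a median of 0.090. ITIH1, a heavy chain that is attached to hyaluronan, had all 4 affected dogs above all 4 controls, at 650, 416, 228 and 134 in affected dogs and 69.9, 81.3, 99.8 and 123 in controls. Its difference was 1.72 ± 0.47 (adjusted p = 0.413 in limma). The control signals lay around 99.8, the 40th percentile of all signals, so they are close to background. For ITIH1 and BMP6 the share of tested probe sets with every affected dog above every control is not given here. HYAL1, a hyaluronidase, differed by 0.50 ± 0.29. CD44, the cell surface receptor of hyaluronan, differed by 0.81 ± 0.50, by 1.32 without affected 3 and by 0.42 without affected 4.

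Of 12 listed partners of pleiotrophin, 3 were tested and none passed over all probe sets. The syndecan SDC2 differed by 0.39 ± 0.57, and by -0.16 without control 2 and 0.03 without affected 3. The integrin subunit ITGAV differed by 0.04 ± 0.26 and nucleolin, NCL, by 0.025 ± 0.25, with errors larger than the values.

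Cells other than cartilage-like cells can supply S100B. The summed signal of 10 fat cell genes other than S100B ranged from 5565 to 7916 in affected leaflets and from 9296 to 27488 in controls, so these groups did not overlap. Control 3, which had the highest S100B, had the highest sum. Of 9 tested fat cell genes 8 were lower in affected dogs. CD36 was at -2.22 ± 0.45, SCD at -1.15 ± 0.26 and LPL at -1.70 ± 0.39, where the 3 probe sets of LPL ranged from -1.97 to -0.59. Their r with the muscle mean was 0.57 for CD36, 0.00055 for SCD and 0.62 for LPL. ADIPOQ had -0.42, and 4 of the 9 genes had a negative r. The sums need not follow fat cells alone, and the part of muscle in them was not tested. Control 2, with the lowest S100B of the controls, had the fat cell hormone ADIPOQ at the floor but a sum of 13210, the second highest of the 8 dogs, and the highest CD36 (1921) and LPL (2559).

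Schwann cells also make S100B. The summed signal of 5 Schwann cell genes other than S100B ranged from 3081 to 4382 in affected dogs and from 2689 to 5359 in controls. GAP43, a growth cone protein, differed by 1.58 ± 0.35, with another probe set at 0.76. The adhesion molecule NCAM1 went in the opposite direction, at -1.01 ± 0.27, with another probe set at -0.87. PMP22 was at -0.28 ± 0.40, and at -0.68 without control 2 and -0.050 without control 3, and the myelin genes MBP at 0.064 ± 0.33 and MAG at -0.12 ± 0.64 had differences within their errors. For 7 melanocyte genes the sums were 1396 to 2589 in affected dogs and 1886 to 3478 in controls, KIT was at the floor in all dogs but control 4, and MITF (-0.37 ± 0.36), EDNRB (-0.12 ± 0.33), OCA2 (-0.026 ± 0.30) and TYRP1 (-0.034 ± 0.51) differed by no more than about their errors. Macrophage and endothelial genes stood the other way. Summed signals of 13 macrophage genes ranged from 20737 to 46317 in affected dogs and from 1407 to 19266 in controls, and those of 7 endothelial genes from 16246 to 28426 in affected dogs and from 8590 to 12111 in controls, without overlap in either list. Of the macrophage genes FCER1G differed by 2.91 ± 0.44, CD14 by 2.09 ± 0.45 and FCGR1A by 3.53 ± 0.77. FCER1G was at the floor in 3 controls and FCGR1A in 1, so their differences and errors depend on the floor. In control 2, 5 of the 13 macrophage genes were at the floor. Of the endothelial genes NOS3 differed by 1.07 ± 0.29, ENG by 1.27 ± 0.35 and PECAM1 by 1.01 ± 0.34, where the 6 probe sets of PECAM1 ranged from 0.16 to 1.01. None of these passed over all probe sets. The part of fat cells, macrophages and endothelium in the differences of the 6 genes was not tested.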

How the data were processed

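Total RNA from 8 leaflets was biotin-labelled and hybridised to 1 Affymetrix array per dog, per the labels' protocols. The authors deposited linear probe set intensities, and MAS5 is the tool that the submitters' processing notes name, without a version. Precision is limited by the number of arrays, and for low signals by background. Gene names came from the platform annotation, which gave 1 symbol for 10549 of 23913 rows. RefSeq's genes for the assembly UU_Cfam_GSD_1.0 held all 6 symbols and 5 of the 6 gene identifiers, and no sequence or coordinate is given.

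Signals were scaled to a common mean after trimming 2% at each end, floored at 34.2 (the 20th percentile) and log2-transformed. Testing required a signal over the array's own 40th percentile on 4 or more of the 8 arrays. Groups were compared with limma 3.58.1 in R 4.3.3 (lmFit, eBayes with a trend). The tests were two-sided, and Benjamini-Hochberg adjustment ran over 14705 probe sets. A gene of a list was read from its brightest probe set. The fit was tested on simulated data. No separate batch is named in the labels.

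The members and lists were chosen with earlier results of these data known. The text names all 6 genes, the 3 genes of smallest unadjusted p in each list described (all of them where 5 or fewer were tested), the 3 brightest heart muscle genes, and for each of the 6 the 3 most and the 1 least correlated named genes; COL1A2, MYL4, KIT and ADIPOQ were named for the tissue check after their values were seen. Alternatives were other normalizations, filters, floors and priors, array weights, a replicate block, covariates and leaving out each dog; the fibroblast covariate, the correlation without 2 dogs and the fit without both of those dogs were added after seeing the data. Correlations with the muscle and the fibroblast mean made 12 relations in all.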

Additional observations from a re-analysis of the deposited data

Results flagged for a closer look

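Of 94 groups of 4 dogs examined, 20 values belonged to a dog whose log2 signal stood far from its group by Dixon's test, which chance alone does in about 1 of 20 groups. These groups shared the same 8 dogs and were not independent, so the count measures no excess over chance. Control 2 or affected 3 accounted for 13 of the 20. For SOX9 these were affected 3 at 10.19, where the next affected dog had 8.51, and control 2 at 6.83, where the next control had 10.13. For TNMD affected 3 stood at 9.33, next to 6.89, and control 2 at 6.94, next to 9.86. Control 2 was also apart in the fibroblast list mean at 11.29, in COMP at 9.51, in COL2A1 at 8.98, in WWP2 at 5.82, in CLU at 12.98 and in SDC2 at 9.45, each time as the lowest control.

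Affected 3 was apart in the calcium channel gene CACNA1C at 7.94. Affected 2 was apart in the heart muscle gene MYOZ2 at 12.55, in NCAM1 at 8.40 and in LPL at 9.81, each time as the highest affected dog. Affected 1 was highest in CLU at 15.43, and affected 4 was lowest in COL2A1 at 9.09. In lists of other cell types, control 2 was the lowest control in fibronectin, FN1, at 11.82 and the highest in MITF at 11.41, affected 2 was the highest affected dog in OCA2 at 8.35, and control 1 was the only control above the floor in FCER1G, at 6.42.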

How the results depend on the processing

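Over 13 or 14 alternatives that kept all 8 dogs, each of the 6 genes kept a negative difference and none passed the threshold. The ranges were -1.50 to -0.59 for SOX9, -1.87 to -0.36 for ACAN, -2.80 to -2.06 for CILP, -2.86 to -1.80 for TNMD, -3.29 to -2.55 for PTN and -2.28 to -1.40 for S100B, the larger sizes coming from the muscle and fibroblast covariates and from array weights, which gave -1.37 for SOX9 and -1.49 for ACAN. ACAN, TNMD and S100B have no value under the stricter filter, which they did not pass. One setting ended this. With control 2 and affected 3 both left out, 128 probe sets passed, 99 of them lower in affected dogs, and they included all 6 genes, at -1.90 for SOX9, -2.47 for ACAN, -3.12 for CILP, -3.46 for TNMD, -3.93 for PTN and -2.42 for S100B (limma, adjusted p from 0.0080 for TNMD to 0.0427 for S100B, 3 dogs a group). That fit was chosen after seeing the data, and the dogs it drops were picked on measured signals and are those that make the groups overlap, so no call is drawn from it. Leaving out 1 dog at a time gave -1.82 to 0.33 for ACAN, with 0.067 without affected 1 and 0.10 without control 4. The count of probe sets past the threshold was 0 to 1 on leaving out a dog, with 1 without control 1. With the replicate number as a block it was 4, all higher in affected dogs and none of them among the 6 genes (adjusted p from 0.0627 for PTN to 0.914 for ACAN). The deviations of same-numbered dogs had r of -0.12, 0.41, 0.022 and -0.013. Such values cannot settle whether the numbers pair dogs, and the labels name no pairing. The median r of the 6 genes with the muscle mean was -0.47, and -0.82 on deviations from the group means. On leaving out a dog, the share of genes lower in affected dogs ranged from 19.0% to 90.5% for other tendon genes (main 33.3%), from 10% to 40% for cartilage regulators (main 20%) and from 36.4% to 100% for heart muscle (main 95.5%). The highest tendon share was without control 2 and the lowest muscle share without affected 3. In short lists it ranged from 33.3% to 100% for cartilage matrix (3 genes, main 66.7%; 100% with quantile normalization), from 14.3% to 57.1% for aggrecan turnover (7 genes, main 42.9%; 57.1% with quantile normalization and 54.5% over every probe set) and from 0% to 100% for pleiotrophin partners (3 genes, main 0%). The cause was not tested.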

Other observations

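With the mean of the fibroblast and valve interstitial cell genes as a covariate, added after seeing the data, the differences were -1.50 ± 0.48 for SOX9, -1.87 ± 0.76 for ACAN, -2.80 ± 0.48 for CILP, -2.86 ± 0.62 for TNMD, -3.19 ± 0.77 for PTN and -2.28 ± 0.43 for S100B (SE). No probe set passed limma in that fit, where the smallest adjusted p was 0.253 and those of the 6 genes ran from 0.257 for CILP to 0.584 for ACAN. COMP, which holds a place in both cartilage and tendon, was at -0.41 ± 0.72 with the muscle mean as a covariate, COL14A1 at -0.94 ± 0.27 and THBS2 at -1.75 ± 0.61.

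Pearson's r of the 6 genes with that fibroblast mean, over the same 8 dogs, ran from -0.0062 for PTN to 0.74 for ACAN. On deviations from the group means it ran from 0.48 for PTN to 0.86 for SOX9. Without control 2 and affected 4, the 2 dogs farthest from its median, all 6 were negative, from -0.58 for TNMD to -0.29 for S100B, so the positive values rest on those dogs. Of the genes in that mean, fibronectin FN1 differed by 0.98 ± 0.47, VIM by 0.53 ± 0.27 and POSTN by 1.81 ± 0.94 between the groups (none passed), and without control 2 FN1 was at 0.43 and POSTN at 0.82.

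The ratio of 3′ to 5′ signal of the actin control probe sets, a sign of RNA quality, ranged from 0.50 to 1.44 in affected dogs and from 0.284 to 0.983 in controls. The lowest ratio was in control 2 and the highest in affected 1, and its part in the results was not tested.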
